A study of Mus musculus with 12 samples.

Results

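The acyl-CoA thioesterase genes were followed in 12 mouse livers in which the nuclear receptors REV-ERBalpha and REV-ERBbeta had, by the labels, been deleted, deleted with REV-ERBalpha given back, or left intact. The members were the 8 genes of the deposited table with the symbols Acot1, Acot2, Acot3, Acot4, Acot8, Acot9, Acot12 and Acot13, out of 48537 genes. The rule takes them by name and uses no measured value. RNA-seq of total RNA from frozen liver tissue, taken at zeitgeber time 10 (10 h of the light phase), gave 3 groups of 4 livers. The re-expression livers carried the genotype label REV-ERBalpha re-expressing and a title naming DKO and REV-ERBalpha-WT. The livers labelled DKO carried the genotype label REV-ERBs double-knockout and a title naming YFP. The control livers carried the genotype label wildtype and a title naming YFP. The columns of the table were named YFP_WT, YFP_Cre and YFP for these groups in the same order, so YFP stands in the column names of all 3 groups. What YFP_Cre and YFP_WT introduce beyond the genotype is not stated by the labels, and an effect of Cre or of the delivery cannot be told apart from the loss of the receptors. Age, sex, promoter and route of delivery are not given in the sources used here.

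Acyl-CoA thioesterases cut the bond between a fatty acid and coenzyme A, which releases the free acid and returns coenzyme A to its pool. They thereby oppose the acyl-CoA synthetases, and the different members work on different chain lengths in the cytosol, the mitochondrion and the peroxisome. In mouse liver the genes Acot1 to Acot4 are known as targets of PPARalpha, the nuclear receptor of the fasting response, whose own gene is Ppara. The REV-ERB receptors, whose genes are Nr1d1 (alpha) and Nr1d2 (beta), belong to the circadian clock and repress transcription.

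The libraries held between 5621667 and 6906221 reads recovered from the deposited values, and 22240 to 23289 genes had at least 1 read. Nr1d1 stood at 191 ± 22.4 TPM in the re-expression livers, 82.5 ± 7.39 TPM in the livers labelled DKO and 68.7 ± 5.53 TPM in control livers (SD, n = 4 each). TPM is a level per unit of transcript length, as a part of a fixed library total. Nr1d2 stood at 97.7, 90.4 and 96.6 TPM in the same order of groups. Gene totals therefore showed no loss of either transcript in the livers labelled DKO. Totals over a whole gene can hold reads from outside a deleted part, so they do not check the deletion, and the group is called by its label here. Arntl, a repressed target of REV-ERB, averaged 15.1 TPM in the re-expression livers, 19.8 TPM in the livers labelled DKO and 0.728 TPM in control livers. Hepatocyte markers (8 of 8 genes found) summed to between 41367 and 47202 TPM in all 12 livers, so the tissue label fits its defining genes.

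Acot1 to Acot4 lie side by side on the plus strand of chromosome 12 (build mm10), in a stretch of 72542 bases. The order along the chromosome is Acot2 (chr12:83987861-83993873), Acot1 (chr12:84009490-84018371), Acot4 (chr12:84038379-84048601) and Acot3 (chr12:84052144-84060402). The promoter windows of these 4 genes are shown because the members that changed most, Acot4 and Acot3, are the neighbouring pair at one end of the cluster. Each window runs from 250 bases before to 50 bases after the annotated start, on the plus strand, from RefSeq on GRCm38.p6. The windows are chr12:84038129-84038428 for Acot4, chr12:84051894-84052193 for Acot3, chr12:84009252-84009551 for Acot1 and chr12:83987611-83987910 for Acot2. Capitals mark the matches to 2 of the motifs searched.
Acot4: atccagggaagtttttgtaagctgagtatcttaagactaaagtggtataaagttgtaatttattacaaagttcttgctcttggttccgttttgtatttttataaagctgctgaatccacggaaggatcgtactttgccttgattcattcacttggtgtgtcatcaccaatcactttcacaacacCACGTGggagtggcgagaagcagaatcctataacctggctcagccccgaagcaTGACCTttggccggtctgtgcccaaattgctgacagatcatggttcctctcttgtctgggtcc
Acot3: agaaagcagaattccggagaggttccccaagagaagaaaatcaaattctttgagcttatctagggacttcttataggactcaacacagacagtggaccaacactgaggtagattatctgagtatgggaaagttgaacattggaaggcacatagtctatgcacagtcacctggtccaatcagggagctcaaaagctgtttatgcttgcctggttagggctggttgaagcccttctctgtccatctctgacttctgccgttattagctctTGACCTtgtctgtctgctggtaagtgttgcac
Acot1: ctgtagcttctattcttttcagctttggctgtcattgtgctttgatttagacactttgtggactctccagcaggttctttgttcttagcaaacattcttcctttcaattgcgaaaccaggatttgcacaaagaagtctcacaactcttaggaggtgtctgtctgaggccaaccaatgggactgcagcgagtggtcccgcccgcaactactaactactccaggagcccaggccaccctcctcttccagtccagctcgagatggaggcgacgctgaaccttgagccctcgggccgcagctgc
Acot2: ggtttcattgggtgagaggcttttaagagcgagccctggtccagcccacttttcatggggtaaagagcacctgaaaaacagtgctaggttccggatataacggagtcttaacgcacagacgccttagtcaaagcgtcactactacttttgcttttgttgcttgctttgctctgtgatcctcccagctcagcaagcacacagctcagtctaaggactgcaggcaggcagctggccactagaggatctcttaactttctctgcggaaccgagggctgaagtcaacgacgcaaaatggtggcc

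The motifs searched, on both strands, were the nuclear receptor core motif AGGTCA, its direct repeats DR1 and DR2 with a spacer of 1 and 2 bases, the E-box CACGTG read by the clock activators, and the D-box TTANGTAA. The capitals TGACCT are the core motif on the minus strand, and the direct repeats, had there been any, would contain it. In Acot4 it began at position -13, counted with 0 at the annotated start, and the E-box began at position -66. In the Acot3 window shown the core motif began at position 18. RefSeq gave Acot3 another window, chr12:84051901-84052200, in which the same match began at position 11. No motif was found in the windows of Acot1 and Acot2, which says only that these letters are not there. Of the 7 members with a RefSeq window, Acot12 also held the core motif, at position -110, and Acot9 held the D-box. Over the windows of all 27025 genes, 18.1% held the core motif, 8.09% the E-box and 2.72% the D-box, so single matches are common. Neither direct repeat was found in a member's window, and over all genes 0.0481% held DR1 and 0.0074% held DR2.

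In every group Acot12 and Acot13 held most of the RNA of the 8 members per unit of length. Acot12 encodes a cytosolic enzyme that hydrolyses acetyl-CoA, and Acot13, also called Them2, encodes an enzyme of medium and long chains found at mitochondria. Together they made up 85.1% ± 0.768 of the summed TPM of the 8 members in the re-expression livers, 90.4% ± 1.38 in the livers labelled DKO and 83.4% ± 2.03 in control livers (SD, n = 4 each). Their ranges overlapped in each group. Within a liver, Acot12 was the higher of the pair in 4 of 4 re-expression livers, 2 of 4 livers labelled DKO and 3 of 4 control livers.

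Below them the order of levels among the 8 members differed between groups. Acot7, which is outside this set, averaged 20.3, 21.4 and 20.6 TPM in the re-expression livers, livers labelled DKO and control livers. In control livers Acot4 came next at 25.8 ± 8.23 TPM and then Acot8 at 13.4 ± 2.65 TPM, with ranges that just met, at 16.4 TPM in the lowest liver for Acot4 and 16.5 TPM in the highest for Acot8. Acot9, Acot1, Acot3 and Acot2 followed at 6.46, 6.41, 6.08 and 4.17 TPM, and no neighbours among these 4 were apart beyond their ranges. In the re-expression livers Acot4 and Acot8 were level, at 14.8 and 14.4 TPM, and Acot3 was last at 3.39 TPM. In the livers labelled DKO Acot4 stood under Acot8 and Acot9, at 4.95 TPM, and Acot3 was last at 0.19 TPM, with ranges apart from the next gene in both cases.

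Livers labelled DKO were first set against control livers, which asks how the family differs between these genotype labels. Acot4 and Acot3, both encoding peroxisomal enzymes, fell by more than the spread between livers, and the other 6 did not pass the test. A gene is called here when its adjusted p in limma, over the 17957 genes tested, is under 0.05. That made 2 of 8 members called, both lower. Over all genes 5.33% were called, and 2.34% were called lower. The values of the same 2 members lay apart between the groups, against 11.5% of all genes apart and 5.4% apart and lower. The median difference was -0.20 on the log2(TPM + 1) scale over the 8 members and 0.0011 over all genes tested. In bulk liver RNA, fewer cells of a type and less RNA per cell cannot be told apart.

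Acot4 encodes a peroxisomal thioesterase that in the mouse acts on succinyl-CoA and other dicarboxylic acyl-CoAs. Its level was 4.59, 5.12, 5.45 and 4.64 TPM in the livers labelled DKO, against 35.9, 22.8, 16.4 and 28.0 TPM in control livers. Each liver labelled DKO was below each control liver, and the livers labelled DKO lay close together while the control livers ranged widely. The mean was 5.21-fold lower in the livers labelled DKO, a difference of -2.12 ± 0.19 in log2(TPM + 1) (SE, limma adjusted p = 8.37e-05). The call held in all 22 alternatives, with adjusted p up to 0.0017.

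Acot3 encodes a peroxisomal thioesterase of medium and long chains. Its level was 0.357, 0.131, 0.134 and 0.138 TPM in the livers labelled DKO, against 9.52, 2.82, 4.80 and 7.20 TPM in control livers. In recovered reads these were 3, 1, 1 and 1 reads in the livers labelled DKO, against 74, 23, 34 and 51 reads in control livers. The transcript was close to the limit of detection in each liver labelled DKO and plain in each control liver. Pooled over livers and set against depth, the reads were 30.6-fold lower in livers labelled DKO, with an exact 95% interval of 13.8 to 84.6 that covers counting error only. On the log2(TPM + 1) scale, which understates such low values, the difference was -2.48 ± 0.32 (SE, limma adjusted p = 0.00108). The call held in the 21 alternatives that tested the gene, with adjusted p up to 0.00502.

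The exact two-sided permutation p over 70 assignments of 4 livers against 4 was 0.0286 for both genes, the smallest this design allows, and was not adjusted. The authors' deposited table gave log2 fold changes of -4.97 for Acot3 (adjusted p = 8.88e-09) and -2.37 for Acot4 (adjusted p = 2.88e-20) in its first numbered comparison. That comparison carries no name and was matched to livers labelled DKO over control livers by its correlation of 0.995 with the TPM differences across 9026 genes.

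The remaining cluster members had smaller differences. Acot1 encodes the cytosolic long-chain thioesterase. Its level was 2.90, 1.14, 4.45 and 3.50 TPM in the livers labelled DKO, against 6.38, 6.71, 4.30 and 8.24 TPM in control livers. The groups overlapped through DKO replicate 3 and control replicate 3. The difference of -0.94 (95% interval -1.57 to -0.31) had an adjusted p of 0.0931. It was called by voom on recovered reads alone (-1.20, adjusted p = 0.0394), and adjusted p over the 22 alternatives ran from 0.0394 to 0.178.

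Acot2 encodes the mitochondrial counterpart of Acot1. Its level was 3.86, 2.98, 4.36 and 2.25 TPM in the livers labelled DKO, against 3.55, 5.36, 2.97 and 4.81 TPM in control livers. The groups overlapped widely, and the difference was -0.25 (95% interval -0.65 to 0.16, adjusted p = 0.539). Whether Acot3 and Acot4 fell more than Acot1 and Acot2 was not tested.

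**Figure D1:**
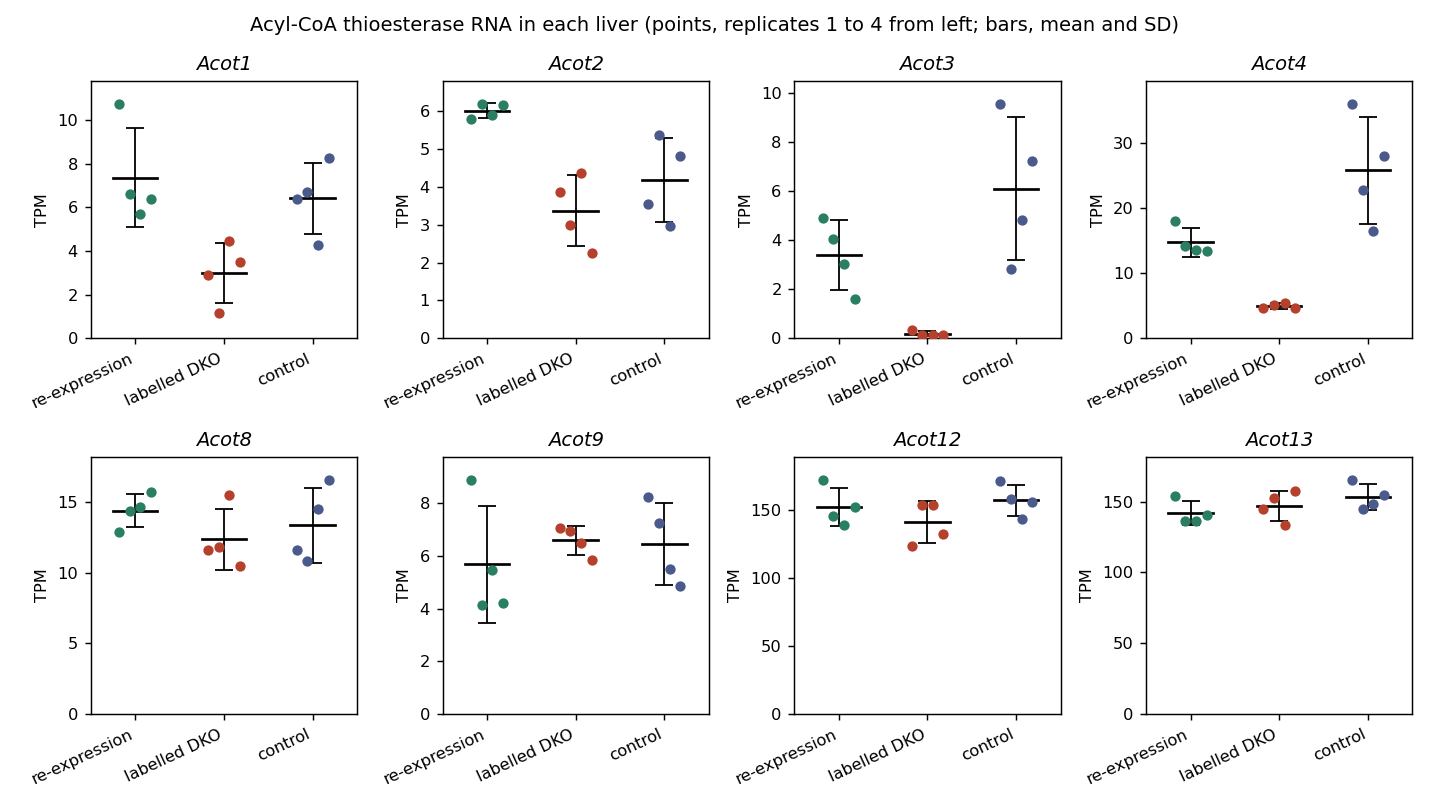
TPM of each of the 8 thioesterase genes in each liver, with the group mean and SD, for re-expression livers, livers labelled DKO and control livers. The 4 livers labelled DKO lie between 4.59 and 5.45 TPM for Acot4 and at 0.357 TPM or less for Acot3, under every liver of the other groups, while the points of Acot12 and Acot13 overlap between groups.

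The members outside the cluster were examined in the same comparison. Acot8 (chr2:164792765-164804882, minus strand) encodes a broad-range peroxisomal thioesterase, and it had 10.5 to 15.5 TPM in the livers labelled DKO and 10.8 to 16.5 TPM in control livers. Acot9 (chrX:155262443-155297654, plus strand) encodes a mitochondrial thioesterase, and it had 5.84 to 7.07 TPM in the livers labelled DKO and 4.85 to 8.23 TPM in control livers. For both genes the livers labelled DKO fell within the range of the control livers or reached just past its edge. Their differences were -0.10 (95% interval -0.42 to 0.22, adjusted p = 0.786) and 0.05 (95% interval -0.42 to 0.51, adjusted p = 0.941).

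Acot12 (chr13:91741512-91786148, plus strand) had 123 to 154 TPM in the livers labelled DKO and 143 to 171 TPM in control livers. Acot13 (chr13:24817948-24831540, minus strand) had 133 to 157 TPM in the livers labelled DKO and 145 to 165 TPM in control livers. These members had the highest TPM, and their intervals were the narrowest. In recovered reads summed over the livers of a group, Acot12 had 4111 in livers labelled DKO and 4521 in control livers. Acot13, a short gene of 744 bases, had 757 and 776. The difference was -0.16 for Acot12 (95% interval -0.36 to 0.05, adjusted p = 0.415) and -0.06 for Acot13 (95% interval -0.22 to 0.09, adjusted p = 0.715). Changes of the size seen in Acot3 or Acot4 lay outside these intervals.

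**Figure D2:**
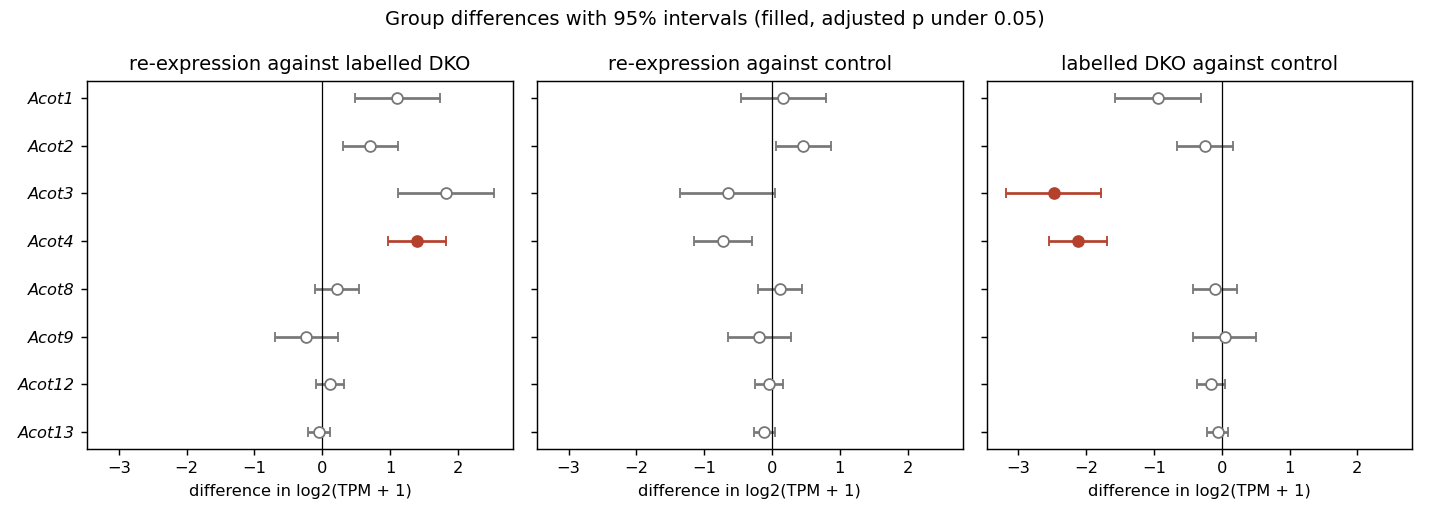
Difference in log2(TPM + 1) of each member with its 95% interval from limma, for re-expression livers against livers labelled DKO, re-expression livers against control livers and livers labelled DKO against control livers. Filled points passed the adjusted threshold: Acot3 and Acot4, at -2.48 and -2.12, in livers labelled DKO against control livers, and Acot4, at 1.40, in re-expression livers against livers labelled DKO.

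Re-expression livers were then set against livers labelled DKO, which asks how the family differs when REV-ERBalpha is given back. Acot4 was higher and was 1 of 13 genes called among all genes tested (0.0724%, and 0.0278% called higher). The comparison shares the livers labelled DKO with the first one, so the opposite sign of the differences is not an independent result. Values of all 4 cluster genes lay apart between the groups, against 2.09% of all genes higher without overlap and 4.25% apart in either direction. The exact two-sided permutation p was 0.0286 for each of these 4, unadjusted and the smallest possible. The median difference was 0.46 over the 8 members and 0.0129 over all genes tested.

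Acot4 had 18.1, 14.1, 13.5 and 13.4 TPM in the re-expression livers, against 4.59, 5.12, 5.45 and 4.64 TPM in the livers labelled DKO. The mean was 2.98-fold higher in the re-expression livers, a difference of 1.40 ± 0.19 (SE, limma adjusted p = 0.0261). That call was lost when any 1 of the 8 livers compared was left out, with adjusted p from 0.065 to 0.106. Over the 22 alternatives the difference ran from 1.30 to 1.55 and adjusted p from 0.00411 to 0.106.

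Acot3 had 4.90, 4.06, 3.03 and 1.59 TPM in the re-expression livers, from 37, 32, 25 and 13 reads, against 0.357 TPM or less in the livers labelled DKO. Each re-expression liver was above each liver labelled DKO. The pooled reads were 17.0-fold higher per depth in the re-expression livers (exact 95% interval 7.55 to 47.3, counting error only). The log2(TPM + 1) difference of 1.82 ± 0.32 did not pass in limma (adjusted p = 0.0967). It passed with a pseudocount of 0.1 (adjusted p = 0.0221), with sample quality weights (0.0301) and without control replicate 2 (0.0485), and adjusted p over 21 alternatives ran from 0.0221 to 0.236.

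Acot1 had 10.7, 6.62, 5.69 and 6.40 TPM in the re-expression livers, against 2.90, 1.14, 4.45 and 3.50 TPM in the livers labelled DKO. Acot2 had 5.80, 6.17, 5.89 and 6.16 TPM in the re-expression livers, against 3.86, 2.98, 4.36 and 2.25 TPM in the livers labelled DKO. Both were higher in each re-expression liver than in any liver labelled DKO, and the Acot2 values of the re-expression livers had an SD of 0.191 TPM. Neither passed the adjusted threshold, with differences of 1.11 (95% interval 0.48 to 1.74, adjusted p = 0.308) for Acot1 and 0.71 (95% interval 0.30 to 1.12, adjusted p = 0.331) for Acot2.

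In the authors' deposited table the second numbered comparison, matched by a correlation of 0.987 to re-expression livers over livers labelled DKO, listed Acot3 at 4.10 (adjusted p = 7.74e-05) and Acot4 at 1.56 (adjusted p = 1.5e-07). It listed Acot1 at 1.27 with an adjusted p of 0.532. Of the genes outside the cluster, Acot8, Acot9, Acot12 and Acot13 had differences of 0.22, -0.23, 0.11 and -0.05 in limma, each with overlapping groups. Their 95% intervals reached 0.54 for Acot8 and -0.70 for Acot9, and were narrower for Acot12 and Acot13.

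Re-expression livers were last set against control livers, which asks how close the levels with REV-ERBalpha given back came to those with both receptors intact. No member was called in limma, against 1.82% of all genes. An unadjusted p under 0.05 was found for 2 of 8 members, Acot4 and Acot2, and for 2251 of all 17957 genes tested. By voom 1 member, Acot4, was called. Acot4 averaged 14.8 ± 2.23 TPM in the re-expression livers and 25.8 ± 8.23 TPM in control livers (SD, n = 4 each), a difference of -0.72 (95% interval -1.15 to -0.30, adjusted p = 0.097). Groups overlapped through re-expression replicate 1 and control replicate 3, and without that control liver the call was made (adjusted p = 0.0189). Adjusted p over the 22 alternatives ran from 0.0189 to 0.24.

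Acot3 averaged 3.39 ± 1.42 TPM in the re-expression livers and 6.08 ± 2.91 TPM in control livers, with overlap and a difference of -0.65 (95% interval -1.36 to 0.05, adjusted p = 0.449). Acot2 had 5.80 to 6.17 TPM in the re-expression livers and 2.97 to 5.36 TPM in control livers, and each re-expression liver was above each control liver. It was the 1 member of 8 whose groups lay apart, against 7.28% of all genes apart and 4.29% apart and higher, and its difference of 0.46 did not pass (95% interval 0.05 to 0.87, adjusted p = 0.319). Acot1 differed by 0.17 (95% interval -0.46 to 0.80, adjusted p = 0.895).

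The summed level of the cluster gives the same data as a whole. Acot1 to Acot4 together had 31.5 ± 5.51 TPM in the re-expression livers, 11.5 ± 2.15 TPM in the livers labelled DKO and 42.5 ± 11.8 TPM in control livers (SD, n = 4 each). The highest liver labelled DKO, at 14.4 TPM, was under the lowest liver of either other group, at 27.5 and 28.5 TPM. The make-up differed too. Acot4 was 47.0% ± 1.51 of the sum in the re-expression livers, 43.9% ± 7.61 in the livers labelled DKO and 60.3% ± 3.32 in control livers. Acot3 was 10.5% ± 3.30, 1.68% ± 0.939 and 14.1% ± 4.54 of it in the same order of groups. Acot2 took 19.5%, 29.1% and 10.3%, so in livers labelled DKO the mitochondrial member had a larger share of a smaller sum.

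**Figure D3:**
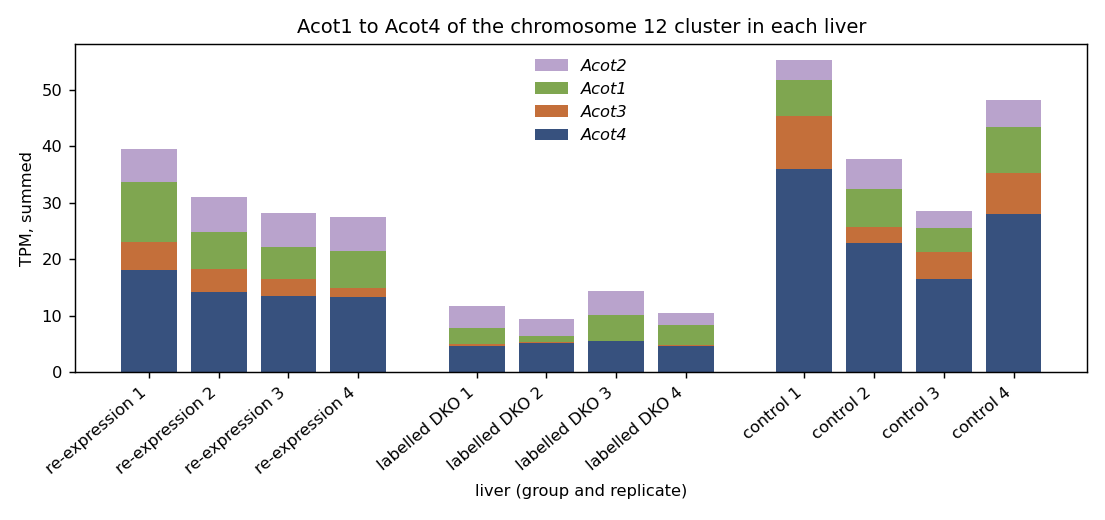
Summed TPM of Acot1, Acot2, Acot3 and Acot4 in each liver, stacked by gene, for re-expression livers, livers labelled DKO and control livers. Sums are 27.5 to 39.5 TPM in the re-expression livers, 9.38 to 14.4 TPM in the livers labelled DKO and 28.5 to 55.3 TPM in control livers, and the Acot3 segment is barely visible in the livers labelled DKO.

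Genes beside the cluster were read from the same fit. Within 200 kb of either end 20 other genes were annotated and 11 were tested. In livers labelled DKO against control livers 1 of the 11 was called, where 5.33% of all genes were, namely the antisense gene 4732463B04Rik, which runs on the minus strand from within Acot3 to within Acot4 (chr12:84039469-84053807). It had 1.27, 0.467, 1.12 and 1.48 TPM in the livers labelled DKO, against 7.01, 6.67, 6.02 and 9.21 TPM in control livers, and the groups lay apart. The difference was -1.99 ± 0.34 (SE, limma adjusted p = 0.00637). In the re-expression livers it had 4.71, 0.751, 4.88 and 3.05 TPM, with overlap with livers labelled DKO (0.94, adjusted p = 0.626).

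The coding genes that were tested beside the cluster did not pass. Riox1, a ribosomal oxygenase gene, differed by 0.21 in livers labelled DKO against control livers (adjusted p = 0.594), and Numb, which encodes an inhibitor of Notch signalling, by -0.04 (adjusted p = 0.862). Elmsan1 differed by 0.12 (adjusted p = 0.748). No neighbour was called by limma or by voom in either comparison of the re-expression livers. The smallest adjusted p in limma was 0.626 against livers labelled DKO, where 3 of 11 had an unadjusted p under 0.05. Against control livers it was 0.19, and 1 of 11 had an unadjusted p under 0.05. Of all 17957 genes tested, 1111 and 2251 were under 0.05 unadjusted in these comparisons, in that order. Acot5, the next thioesterase gene after Acot3, had no read in any liver, and Acot6 averaged 0.738, 0.623 and 0.517 TPM in the re-expression livers, livers labelled DKO and control livers, too low to be tested.

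**Figure D4:**
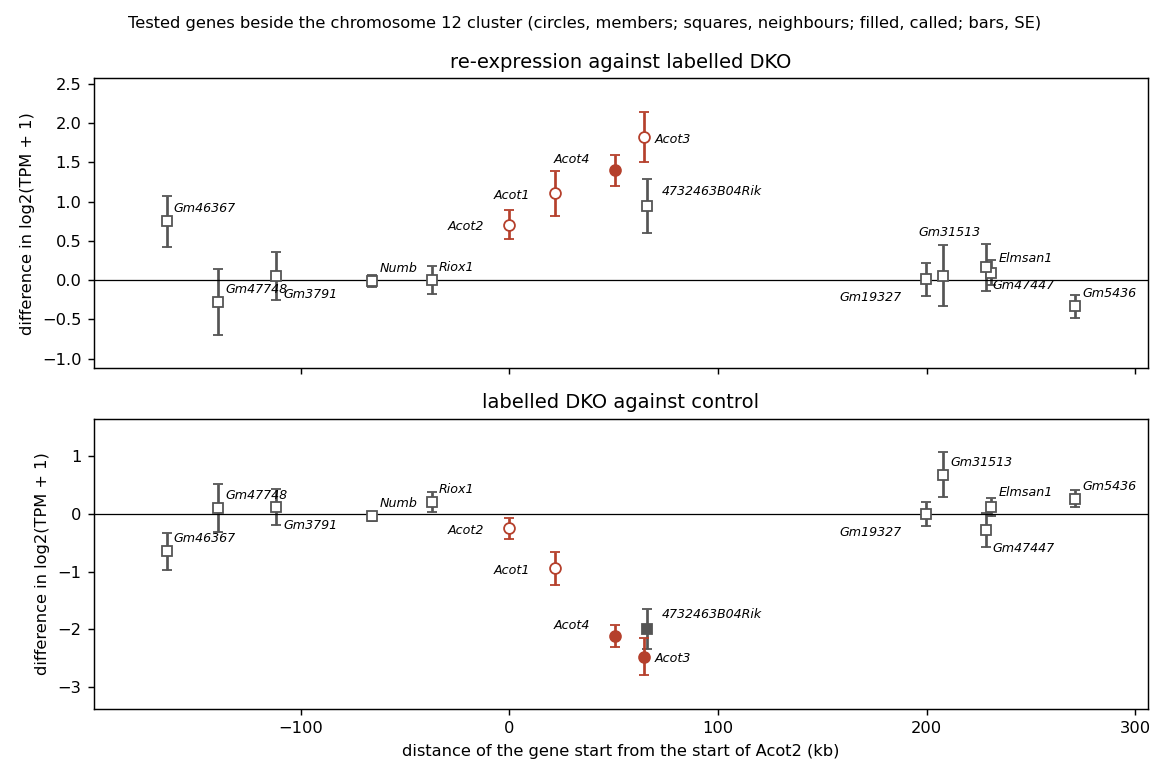
Difference in log2(TPM + 1) with its SE for the tested genes within 200 kb of the cluster, by distance of the gene start from the start of Acot2 in kb, with re-expression livers against livers labelled DKO in the upper panel and livers labelled DKO against control livers in the lower one. Filled symbols were called: Acot4 in the first, and Acot3, Acot4 and the antisense gene 4732463B04Rik in the second, at -2.48, -2.12 and -1.99.

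Overlap and near-identity bear on how far single members can be told apart. 4732463B04Rik shares 615 exon bases with Acot4 (9.21% of its exon bases) and 312 with Acot3 (9.08%), on the opposite strand. The library kit keeps strand, but no source used here says whether counting used strand, so these genes may share reads. Gm49366, a read-through model on the same strand that joins Acot4 and Acot3, had no read in any liver. It shares 396 exon bases with Acot3 (11.5% of its exon bases) and 33 with Acot4 (0.494%). Reads in these bases may have been dropped, so the absence of reads does not show that Gm49366 is silent. Of all windows of 50 bases in their transcripts, 27.7% for Acot2, 19.2% for Acot1, 19.1% for Acot3 and 4.53% for Acot4 also stand in a transcript of another gene on the same strand. Acot1 and Acot2 share most with each other (24.5% of Acot2 windows stand in Acot1), so their reads may have been split or dropped. On the same strand Acot8, Acot12 and Acot13 share none, and Acot9 shares 15.2% with Acot10. On the opposite strand Acot8 shares 246 exon bases (12.3% of its exon bases) with Snx21. Acot12 shares 149 (4.52%) with 4833422C13Rik, also on the opposite strand, so these genes may share reads as well. The contribution of shared reads to the differences was not tested.

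Marker sums of other cell types moved with the comparison of livers labelled DKO and control livers. The stellate cell and fibroblast list (7 of 7 genes found) summed to 210 to 237 TPM in the livers labelled DKO and 131 to 176 TPM in control livers. The sinusoidal endothelium list (6 of 6) summed to 192 to 241 TPM in the livers labelled DKO and 162 to 179 TPM in control livers. The red blood cell list (5 of 5) summed to 400 to 686 TPM in the livers labelled DKO and 276 to 382 TPM in control livers. The other lists overlapped between these groups. Among them the fat cell list (6 of 6) summed to 1190 to 1690 TPM in the livers labelled DKO and 825 to 2101 TPM in control livers. In that list Adipoq and Lep were at 0 in all 12 livers, while Car3 averaged 1433 TPM over the 12 livers. The part of these cells in the results on Acot3 and Acot4 was not tested.

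Other genes of acyl-CoA hydrolysis were read as a list. Of 14 other thioesterases and relatives 10 were tested, and in livers labelled DKO against control livers 1 was called lower and none higher, against 5.33% of all genes. That gene was Pctp, which encodes a phosphatidylcholine transfer protein known as a binding partner of the Acot13 enzyme. Pctp had 96.0, 75.6, 71.9 and 87.8 TPM in the re-expression livers, 53.7, 55.6, 50.2 and 52.4 TPM in the livers labelled DKO and 98.5, 109, 87.1 and 107 TPM in control livers. Its livers labelled DKO lay under all others. The difference was -0.91 ± 0.10 in livers labelled DKO against control livers (SE, limma adjusted p = 0.00037) and 0.63 ± 0.10 in re-expression livers against livers labelled DKO (adjusted p = 0.061, 0.0232 to 0.175 over the alternatives). The second difference was called in 6 of the 22 alternatives: with a mean TPM of at least 5 (adjusted p = 0.0498), median-of-ratios scaling (0.0434), quantile normalization (0.0287), sample quality weights (0.0264), voom (0.0232) and without control replicate 3 (0.0485).

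Acnat1, which encodes a peroxisomal acyl-CoA:amino acid acyltransferase, was called higher in the re-expression livers, at 160 TPM, than in control livers, at 101 TPM (0.68, adjusted p = 0.0391). That call was lost without any 1 re-expression liver, without control replicates 1, 3 or 4 and without DKO replicates 1 or 2, each alone (adjusted p 0.0582 to 0.107). Baat, which encodes the enzyme that joins bile acids to amino acids, had the highest level of the list, with 455, 440 and 445 TPM in the re-expression livers, livers labelled DKO and control livers.

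Ppara, the receptor gene named above, had 234, 192, 192 and 222 TPM in the re-expression livers, 147, 167, 164 and 162 TPM in the livers labelled DKO and 253, 268, 251 and 251 TPM in control livers. The livers labelled DKO were lowest and the control livers highest, with no overlap between any of the 3 groups. Ppara was called in livers labelled DKO against control livers (limma adjusted p = 0.000394). Re-expression livers passed neither against livers labelled DKO (limma adjusted p = 0.129) nor against control livers (0.0863). Of all genes 11.5%, 4.25% and 7.28% lay apart in these 3 comparisons, in that order. Among 30 genes of PPARalpha and its textbook liver targets, 3 were called lower and 1 higher in livers labelled DKO against control livers, against 2.34% of all genes called lower and 5.33% called in either direction. The list median was -0.0018 in that comparison, against 0.0011 over all genes, and 0.20 in re-expression livers against livers labelled DKO, against 0.0129 over all genes. Among the lower ones were Ppara (-0.67) and Cpt1a (-0.64), the gene of the carnitine transferase that admits long chains to the mitochondrion. The higher one was Pdk4 (2.06, adjusted p = 0.0127), which encodes a kinase that holds back pyruvate dehydrogenase.

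The neighbouring pathways were counted in the same fit, livers labelled DKO against control livers, where 5.33% of all genes were called. Of 20 tested genes of mitochondrial beta-oxidation 2 were called lower, Cpt1a and the carnitine transporter gene Slc22a5 (-0.90), and 2 higher, Etfdh and Etfa of the electron transfer chain of acyl-CoA dehydrogenases. Of 24 tested genes of peroxisomal beta-oxidation 1 was called lower and 1 higher, the higher one being Acox2 (0.42), the gene of the branched-chain and bile acid oxidase. Of 21 acyl-CoA synthetases, which make the substrates of the thioesterases, 15 were tested, 1 was called higher, Acsl1 (0.75), and 1 lower, Acsm5. Of 15 genes of coenzyme A synthesis and breakdown 14 were tested and 2 were called lower, the pantetheinase gene Vnn3 (-0.52) and the pantothenate kinase gene Pank1. Of 13 genes of acetyl-CoA and acetate use 12 were tested and 2 were called higher, among them Acat1 (0.52), which encodes a mitochondrial acetoacetyl-CoA thiolase.

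Some of these calls were close to the threshold and were lost when 1 library was left out, whichever of several livers it was. Those of Etfdh and Etfa were lost without any 1 liver labelled DKO and without control replicates 1, 3 or 4, and that of Etfa also without re-expression replicates 2, 3 or 4. That of Acsm5 was lost without any 1 liver but re-expression replicate 3 or control replicate 3. That of Pank1 was lost without DKO replicates 1, 2 or 4 or control replicates 1 or 2. Of the acetyl-CoA list 1 gene was called without DKO replicates 2 or 3 or control replicates 2 or 3. Adjusted p in these cases ran up to 0.118, for Acsm5. Without control replicate 1, 4 genes of the peroxisomal list were called, and without DKO replicate 3, 2 of the other thioesterases and relatives were, Acnat1 being added (adjusted p = 0.0159).

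No gene of these 7 lists was called in limma in re-expression livers against livers labelled DKO. Unadjusted p was under 0.05 for 8 of 30 genes of the PPARalpha list, and for 1 to 3 genes of each of the others. Over all genes it was under 0.05 for 1111 of 17957. Voom called 1 gene of the lists, Pctp, which other alternatives in limma also called as given above. Against control livers, the genes called higher in the re-expression livers included Acnat1, Acsl1 and Acat1. The call of Acsl1 was lost without re-expression replicates 2 or 4 or control replicate 3 and that of Acat1 without any 1 of the 12 livers. Without re-expression replicate 1 Ppara was called lower (adjusted p = 0.0494), and without re-expression replicate 2 Pdk4 was called higher (adjusted p = 0.0394).

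Likeness of pattern was described by Pearson's r of log2(TPM + 1) over the 12 livers, which share the group differences, so r carries no p. Acot3 and Acot4 were each other's most similar gene among all genes tested (r = 0.95). After Acot4, Acot3 was most like Cers6, the gene of a ceramide synthase (r = 0.95), and Dmpk, the gene of the kinase affected in myotonic dystrophy (r = 0.91). After Acot3, Acot4 was most like Pctp (r = 0.95) and Ugt1a1, the gene of the enzyme that conjugates bilirubin (r = 0.95). Cers6 had 11.5 ± 2.48 TPM in the re-expression livers, 6.09 ± 0.872 TPM in the livers labelled DKO and 16.2 ± 3.50 TPM in control livers. Ugt1a1 had 139 ± 18.2 TPM, 107 ± 3.05 TPM and 165 ± 12.7 TPM in the same order of groups.

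The other members had no such partner within the family. Acot1 correlated with Acot4 at r = 0.75, with Acot3 at r = 0.74 and with Acot2 at r = 0.67. Acot2 correlated with Acot4 at r = 0.42, and Acot12 with Acot4 at r = 0.65. Outside the family Acot1 was most like Gm45484 and Iglc1 (r = 0.92 and 0.91) and then Aldh3a2, the gene of a fatty aldehyde dehydrogenase (r = 0.89). Acot2 was most like Casp16 (r = 0.88), Decr2, the gene of a peroxisomal dienoyl-CoA reductase (r = 0.88), and Dglucy (r = 0.84). Acot8 was most like Cul9 (r = 0.92), Acot9 like Qk (r = 0.93), Acot12 like Gm37212 (r = 0.91) and Acot13 like Gm38235 (r = 0.91). Among pairs of members outside the cluster, Acot8 and Acot9 had the lowest value, r = -0.62.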

How the data were processed

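The deposited table of the whole series was used, with 12 columns of TPM values computed by the authors and numbered comparisons with the authors' deposited log2 fold changes and adjusted p-values. Among the tools named in the submitters' processing notes are DESeq2 1.36.0, STAR 2.7.1a and featureCounts 2.0.1, besides SAMtools 1.9 and bcl2fastq 2.17, and the build is mm10. Settings for strand and for reads with several matches are not given in the sources used here. Columns were matched to samples by the words in their names. YFP_Cre was matched to the livers labelled DKO because the other names belong to the other groups. Of 3 numbered comparisons 2 matched a pair of groups, and the other was not used.

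TPM is not a count, so limma 3.58.1 in R 4.3.3 tested log2(TPM + 1), with 3 group means over all 12 libraries, 9 residual degrees of freedom, a two-sided moderated test whose prior variance followed expression, and Benjamini-Hochberg adjustment over the 17957 genes whose TPM averaged 1 or more. TPM times the gene length less 199 bases came out as whole steps in 100% of values, within 0.01 reads, which gave recovered reads, used for depth, pooled ratios and voom. Chi-square per degree of freedom between replicates ran from 4.59 to 15.6, so no pair agreed within sampling noise, and the labels call each library a separate biological replicate. The procedure was tested on simulated data. Intervals of read ratios are exact and cover counting error.

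Alternatives were another pseudocount, filter, scaling, weighting or prior, 8 libraries per comparison, a replicate block, voom, and each library left out. Names were chosen by a rule: all members, up to 4 genes of smallest p per list, tested neighbours and the 3 most similar genes of each member. Baat, Acot5, Acot6 and Acot7 were named after their values were seen. The members and lists were chosen with earlier results of these data known. Positions and shared windows are from GENCODE release M21 on mm10. Promoters are from RefSeq on GRCm38.p6, where 7 members had an entry. No protein sequence was used here. Results for 2 genes of the pathway lists are not reported here, though the list counts include them. Other software was Python 3.11.15, scipy 1.17.1 and matplotlib 3.10.9.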

Additional observations from a re-analysis of the deposited data

Results flagged for a closer look

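Of 24 groups of 4 livers, 8 members in 3 groups each, 2 held a liver far from its others by Dixon's 95% criterion for the gap to the nearest liver. Chance flags about 1 group in 20. Acot3 had 0.357 TPM in DKO replicate 1, from 3 reads, while the next liver labelled DKO had 0.138 TPM, from 1 read. Acot4 had 18.1 TPM in re-expression replicate 1, while the next re-expression liver had 14.1 TPM. Re-expression replicate 1 also had the highest Acot1, Acot3, Acot9, Acot12 and Acot13 values of its group.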

How the results depend on the processing

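The calls of Acot3 and Acot4 in livers labelled DKO against control livers were kept in every alternative that tested them, and a mean TPM of at least 5 left Acot3 untested, so 1 member was called there. In re-expression livers against livers labelled DKO 2 members were called with a pseudocount of 0.1 and with sample quality weights, 0 with the replicate block and 0 to 2 with a library left out. In re-expression livers against control livers voom called 1 member, and leaving out a library gave 0 to 1. Counts over all genes in livers labelled DKO against control livers were 958, with 559 from 8 libraries and 573 to 922 with a library left out. In re-expression livers against livers labelled DKO they were 13, with 36 under sample quality weights, 20 from 8 libraries, 8 with the replicate block, 34 by voom and 5 to 15 with a library left out. In re-expression livers against control livers they were 327, with 162 from 8 libraries, 209 with the replicate block, 537 by voom and 175 to 332 with a library left out. The cause of these shifts was not tested.

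The replicate numbers were not taken to pair the livers: same-numbered livers correlated at -0.0688 to 0.137 in their deviations, and 1 of 12 pairs was over 0.1. Between re-expression and control livers, though, the 4 pairs were at 0.137, 0.0384, 0.0699 and 0.0879, and each liver correlated best with its own number, which is a hint from the data and not from the design. With the replicate block Acot4 in re-expression livers against livers labelled DKO had an adjusted p of 0.078. The block also ended the calls of Acsl1 (0.0537), Acat1 (0.0845) and Acnat1 (0.0921) in re-expression livers against control livers, and of Acsm5 (0.0749), Pank1 (0.0533), Etfdh (0.0788) and Dmpk (0.0539) in livers labelled DKO against control livers. With 8 libraries the calls of Acsm5 (0.101), Pank1 (0.0688), Etfdh (0.0893), Etfa (0.0668) and Dmpk (0.0903) in that comparison were lost as well, as were those of Acat1 (0.147) and Acnat1 (0.0527) in re-expression livers against control livers. In livers labelled DKO against control livers the call of Etfa was also lost with quantile normalization (0.15) and with no filter (0.0702). That of Acsm5 was lost with no filter (0.067). In re-expression livers against control livers no filter and sample quality weights ended the calls of Acat1 (0.0704 and 0.0518) and Acnat1 (0.0645 and 0.0539). Signs turned in differences near 0 that were not called, when 1 library was left out. In livers labelled DKO against control livers the range was -0.21 to 0.0027 for Acot8 (turned without control replicate 4) and -0.063 to 0.16 for Acot9 (control replicates 3 or 4). For re-expression livers against control livers it was -0.0077 to 0.28 for Acot1 (re-expression replicate 1) and -0.16 to 0.20 for Acaa1b (re-expression replicates 1 or 3, control replicate 4). For re-expression livers against livers labelled DKO it was -0.043 to 0.16 for Acsl1 (DKO replicates 1 or 2, re-expression replicate 2). Depth limited Acot3 most, with 1 to 3 reads in each liver labelled DKO.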
